A study of Mus musculus with 3 samples.

Results

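The respiratory chain genes of macrophages and dendritic cells (DCs) from mouse hearts were followed across 3 single-cell libraries. They were chosen by symbol: names starting with Nduf, Sdh (with a, b, c or d), Uqcr, Cox4, Cox5, Cox6, Cox7b, Cox7c, Cox8 or Atp5, and the protein-coding genes of the mitochondrial genome, with at least 20 CPM in any library. CPM is the number of UMIs of a gene in 1000000 UMIs of a group of cells. A UMI marks 1 captured transcript, read at its 3′ end, so levels are given per transcript and not per length. Of 27998 genes in the tables, 106 symbols matched and 92 reached the minimum. These were 80 nuclear members and 12 mitochondrially coded members. Cox7a and the genes that build the chain under other names were not part of the rule. The members just inside the minimum were Cox6b2 and Ndufaf4, both at 20.01 CPM in their highest library. The nearest outside were Sdhaf1 at 19.35 and mt-Nd6 at 15.84, the only coding gene of the mitochondrial genome that fell under it.

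The study set cardiac macrophages taken after myocardial infarction (MI) beside those of uninjured hearts. All mice were C57BL/6 and 8 to 12 weeks old. The steady-state macrophage library and the library of macrophages taken at day 11 after infarction came from Cx3cr1CreER-YFP/+:R26Td/+ mice, in which the Cx3cr1 promoter drives an inducible Cre and YFP. The third, called the mixed library here, held steady-state macrophages and DCs together and came from wild Type mice, so its genotype and its gate both differ. Macrophages were gated as live CD45+ CD11b+ cells with CD64, and DCs as CD64- CD11c+ cells with MHC class II. Flavopiridol, an inhibitor of transcription, was added while the hearts were digested with collagenase. Whether it acted alike on nuclear and mitochondrial transcription was not measured. The labels give no number of animals behind a library, and each group has 1 library. The spread between animals is thus unknown for every difference below, no test was possible, and every interval is an exact 95% interval that covers counting error only.

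The respiratory chain sits in the inner mitochondrial membrane. Complexes I and II pass electrons from NADH and succinate to ubiquinone, complex III hands them to cytochrome c, and complex IV gives them to oxygen. Proton pumping by complexes I, III and IV drives complex V, the ATP synthase. Most subunits are coded in the nucleus and imported, while the core membrane subunits of complexes I, III, IV and V are coded in mitochondrial DNA, and complex II is coded in the nucleus alone. The 2 sets are thus transcribed by different polymerases and meet only in the assembled complexes.

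The libraries held 1806, 4697 and 1780 barcodes (steady state, day 11, mixed), with 23711707, 45177529 and 14388327 UMIs. After filters 1741, 4497 and 1742 cells remained. Of these, 1683, 4346 and 1005 were in a macrophage compartment that includes monocyte-like and cycling cells, and 14, 110 and 737 were DC-like. Median depth in the compartment differed, at 10685, 8104 and 5479 UMIs per cell. The macrophage marker list summed to 50056, 67746 and 24238 CPM in the 3 compartments and to 909.1 in the DC-like cells of the mixed library. Cluster 9 (Retnla, Ear2), with 325 cells in that library, entered its compartment by default, with a median log2 fold of -1.73 for the macrophage list against other cells, so sums between groups that use that compartment are also given without it. Single genes are given with it unless stated. Cluster 4, with 899 of the 4346 compartment cells at day 11 and 10 at steady state, was led by Saa3, Col3a1, Dcn and Ccl8, with 2 fibroblast markers and 1 macrophage marker in its top 10. At day 11 its macrophage list summed to 72814 CPM, against 66056 in the rest of the compartment, and its list of 8 fibroblast markers to 458.1 against 313.6. It was kept in the compartment, and most day 11 sums are also given without it. Pairs of libraries shared 7 to 11 barcodes, where 4.36 to 11.5 were due by chance.

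The nuclear members lay on 18 chromosomes, with at most 7 on any one and 3 on the X chromosome. The 12 mitochondrially coded members all lay on 1 strand of the mitochondrial genome, and the excluded mt-Nd6 lay on the other. The nuclear members are thus read from scattered promoters, and RefSeq promoters of build GRCm38.p6, from 250 bases before to 50 bases after the start site, were matched for 69 of the 80. The site of NRF1 (nuclear respiratory factor 1, a known regulator of respiratory chain genes), with its sixth base left free, was searched on both strands of these 300 bases; its letters are the capitals in the first 3 stretches below. It was found for 19 of 69 members, or 27.5%, against 13.1% of the other genes with at least 20 CPM and 5.19% of all genes in the table. The narrower form with no free base, which is contained in this search, was found for 8.7%, 2.53% and 1.07%. The letters CCGGAAG, the core bound by ETS factors such as GABPA, were found for 24.6% of members and 23.3% of the other expressed genes, so these letters were about as common outside the chain. By complex, the NRF1 letters were found for 7 of 32 matched members of complex I, 2 of 3 of complex II, 1 of 5 of complex III, 1 of 9 of complex IV and 6 of 14 of complex V. A match is a description of letters and not of binding.

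The stretches below were taken only from members that hold these letters before the start site. Of those, the most abundant of a complex at steady state was used. Members without the letters there were passed over, even where they were more abundant. Each was trimmed to the bases free of annotated exons and is written 5′ to 3′ in the direction of the gene, all on the minus strand, with the searched letters in capitals. Ndufb4 (complex I accessory subunit) is at chr16:37654454-37654618, Cox6a1 (complex IV) at chr5:115348982-115349129, Atp5h (complex V stator) at chr11:115419963-115420127 and Uqcrh (the hinge protein of complex III) at chr4:116075072-116075268. In Cox6a1 the first capitals are the form with no free base and the second a further match, and in Uqcrh they are CCGGAAG read on the opposite strand.
Ndufb4: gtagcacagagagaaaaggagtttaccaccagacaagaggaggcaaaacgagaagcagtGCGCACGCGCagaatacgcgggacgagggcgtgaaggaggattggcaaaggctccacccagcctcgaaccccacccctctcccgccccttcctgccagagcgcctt
Cox6a1: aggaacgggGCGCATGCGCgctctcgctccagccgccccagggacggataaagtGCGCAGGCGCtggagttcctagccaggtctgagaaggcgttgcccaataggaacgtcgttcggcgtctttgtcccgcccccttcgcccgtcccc
Atp5h: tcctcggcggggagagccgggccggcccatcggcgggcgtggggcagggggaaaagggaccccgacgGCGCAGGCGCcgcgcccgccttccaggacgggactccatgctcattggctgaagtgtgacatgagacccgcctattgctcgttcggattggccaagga
Uqcrh: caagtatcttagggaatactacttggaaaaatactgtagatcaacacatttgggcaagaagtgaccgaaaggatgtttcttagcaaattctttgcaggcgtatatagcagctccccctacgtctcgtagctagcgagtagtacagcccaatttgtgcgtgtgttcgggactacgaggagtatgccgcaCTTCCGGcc

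In steady-state macrophages the 80 nuclear members together made up 19084 CPM (19026 to 19142), or 1.91% of all UMIs, and the 12 mitochondrially coded members 35253 (35175 to 35332), or 3.53%. Nuclear subunits of complex I summed to 5889 CPM over 36 genes, those of complex II to 512.0 over 4, complex III to 2095 over 8, complex IV to 5005 over 11 and complex V to 5408 over 15. A further 6 assembly factors summed to 174.7. The mitochondrially coded subunits of complex I summed to 7824, of complex III to 2941, of complex IV to 16525 and of complex V to 7962. Subunits of 1 complex were thus not at 1 level.

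**Figure D1:**
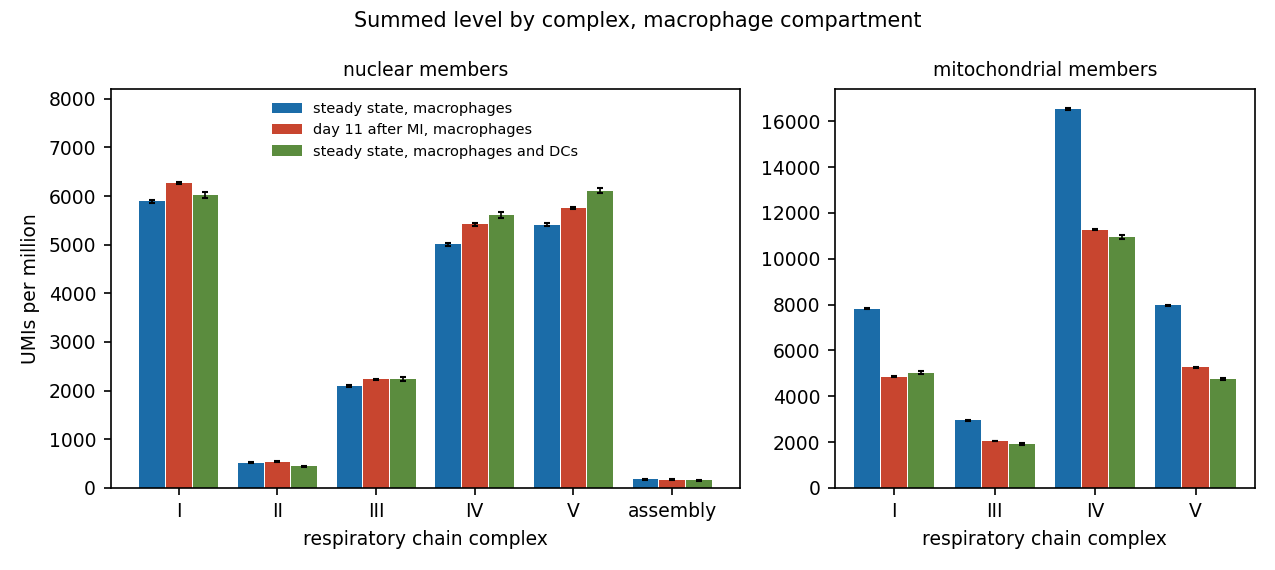
Bars give the summed level of the members of each complex in CPM, over the macrophage compartment of each library, on linear axes from 0, with exact 95% counting intervals. Nuclear sums lie close together in the 3 libraries, while all 4 mitochondrially coded sums are highest in the steady-state macrophage library (16525 for complex IV, against 11270 at day 11).

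Among nuclear members, Cox4i1, a complex IV subunit expressed in most tissues, had the highest level, with 908.9 CPM in steady-state macrophages, 1053 at day 11 and 972.3 in the mixed-library macrophages. Cox8a followed with 625.5, 760.9 and 782.5, and Cox7c with 609.4, 639.7 and 713.9. In complex V the small stalk and membrane subunits led: Atp5l had 623.1, 712.9 and 707.7, and Atp5e 539.4, 610.0 and 748.9. The catalytic beta subunit Atp5b had 468.6, 440.4 and 468.4. Uqcrh led complex III with 475.5, 552.6 and 529.5. In complex I the accessory subunits Ndufa2 (388.4, 432.0 and 404.8) and Ndufa13 (376.7, 395.8 and 415.1) led, while Ndufs1, the largest iron-sulfur subunit of the electron-accepting arm, had 28.1, 30 and 17.1. Complex II was led by its iron-sulfur subunit Sdhb, with 196.3, 215.3 and 179.4.

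Paralogs or tissue isoforms of some members were far lower than their widespread partners. Over all kept cells, Cox4i2 had 1.84, 1.18 and 0.284 CPM. The heart and muscle form Cox6a2 had 13.1, 5.82 and 12.3, where Cox6a1 had 448.5, 451.1 and 487.8 in the compartments. Cox8b, a form of muscle and brown fat, had 6.41, 2.08 and 7.09, and Ndufa4l2 had 2.24, 1.52 and 0.355. Cox6b2, a form best known from testis, had 15.7, 11.2 and 20.0. The 3 genes for the identical c subunit of the ATP synthase ring were all expressed: Atp5g2 had 374.3, 428.5 and 464.1 in the compartments, Atp5g1 256.5, 277.9 and 287.0, and Atp5g3 187.5, 180.3 and 153.0.

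Day 11 macrophages were compared with steady-state macrophages to ask whether the chain differed after infarction. Nuclear members summed to 20374 CPM at day 11 and 19084 at steady state, a ratio of 1.07 (1.06 to 1.07). None of 79 nuclear members that reached the minimum in either group was at least 1.5-fold different, where 10.5% of all 5314 genes tested were. Of the 79, 61 were above a ratio of 1, with a median log2 ratio of 0.08, where 40.4% of all genes were above 1 and the median of all genes was -0.06. The ratio was alike across complexes: 1.06 for complex I, 1.05 for II, 1.06 for III, 1.08 for IV, 1.06 for V and 0.978 for assembly factors. Without cluster 4 the nuclear ratio was 1.06 (1.05 to 1.06).

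Mitochondrially coded members went the other way against this reference. Their sum was 23416 CPM at day 11 and 35253 at steady state, a ratio of 0.664 (0.662 to 0.666). All 12 were below 1 and 7 were at least 1.5-fold lower, where 6.53% of all genes were. The cytochrome c oxidase core subunit mt-Co1 had 4140 at day 11 and 5878 at steady state, a ratio of 0.704. The cytochrome b gene mt-Cytb had 2050 and 2941, a ratio of 0.697. The complex I subunits were lower still: mt-Nd1 had 2059 and 3272, a ratio of 0.629, mt-Nd2 788.7 and 1361, a ratio of 0.580, and mt-Nd5 193.9 and 358.8, a ratio of 0.540. The number of mitochondrial UMIs per nuclear-member UMI was 1.15 at day 11 and 1.85 at steady state. Without cluster 4, whose own mitochondrial sum at day 11 was 28166, the ratio was 0.62 (0.618 to 0.622), and all 12 were at least 1.5-fold lower, where 7.65% of all genes were.

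The second steady-state library gave another answer. The mixed-library macrophages, also from uninjured hearts, had 22657 mitochondrial member CPM, close to day 11 and not to the first steady-state library, with 1.1 mitochondrial UMIs per nuclear-member UMI. Day 11 over this library was 1.03 (1.03 to 1.04) for the mitochondrial sum and 0.989 (0.984 to 0.995) for the nuclear sum. The mixed library over the other steady-state library was 0.643 (0.639 to 0.646) in the mitochondrial sum, with 11 of 12 members at least 1.5-fold lower in the mixed library, where 23.6% of all genes were. The nuclear sum had a ratio of 1.08 (1.07 to 1.09). Without cluster 9 these were 0.726 and 1.02, and 2 of the 12 members, mt-Atp8 and mt-Nd4l, were at least 1.5-fold lower, where 14.4% of all genes were. Without cluster 9, day 11 over the mixed library was 0.917 (0.91 to 0.923) for the mitochondrial sum and 1.05 (1.04 to 1.06) for the nuclear sum. Without cluster 4 they were 0.964 (0.958 to 0.969) and 0.98 (0.975 to 0.986), and without both clusters 0.855 (0.849 to 0.861) and 1.04 (1.03 to 1.05). Both sums thus lay on either side of 1 against this library, by which cells were compared. By depth per cell, from under 5000 to at least 10000 UMIs, with all clusters, the ratios ran from 0.986 to 1.28 and from 0.898 to 1.09. These comparisons share libraries. Injury, genotype, gate and library cannot be told apart in them, and the mitochondrial difference at day 11 was seen in full against 1 of the 2 steady-state libraries.

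**Figure D2:**
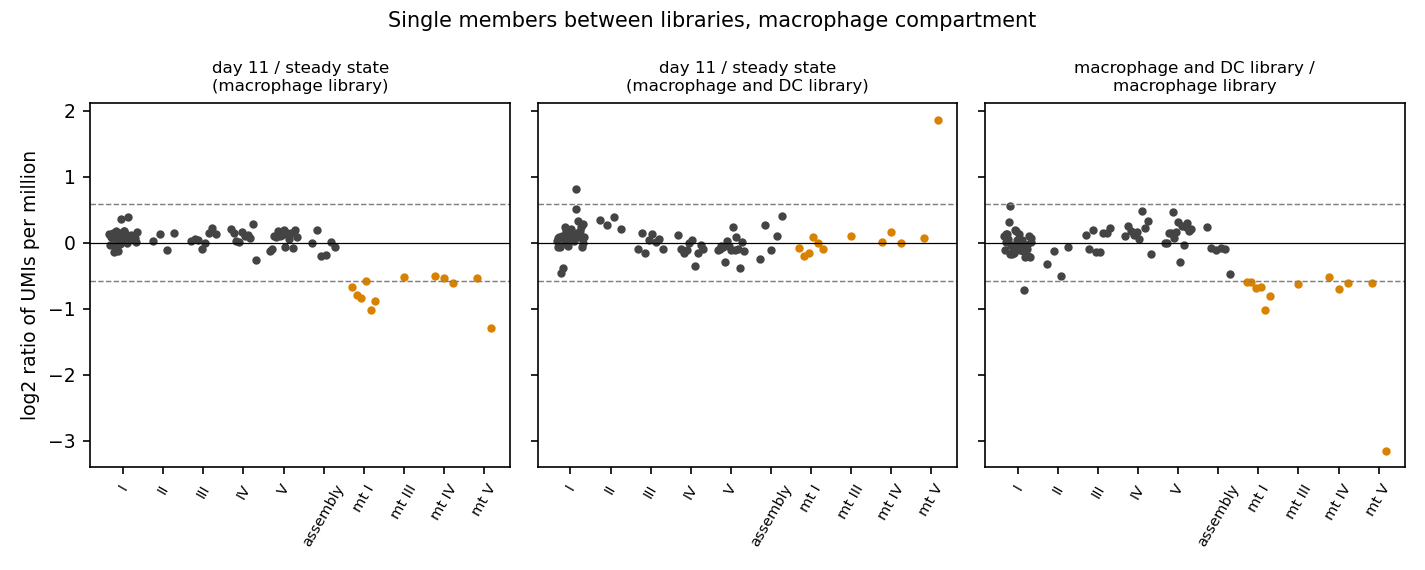
Points give the log2 ratio of CPM of each member that reached the minimum, by complex, for 3 pairs of libraries (macrophage compartment). Black points are nuclear members, orange points mitochondrially coded ones, and dashed lines mark 1.5-fold. Orange points lie below 0 in both panels with the steady-state macrophage library as reference and near 0 in the middle panel, except mt-Atp8 (ratio 3.63).

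RNA of heart muscle cells, whose mitochondria are dense, was measured beside these values. A list of 16 cardiomyocyte genes, all 16 with a UMI in the compartment of the steady-state and of the day 11 library and 15 (all but Ryr2) in that of the mixed library, summed to 194.0, 81.8 and 105.7 CPM. In cells with no UMI of the list, day 11 over the steady-state library was 0.75 (0.745 to 0.755) for the mitochondrial sum and 1.09 for the nuclear sum. Among cells of 5000 to 10000 UMIs it was 0.699 and 1.07. Within clusters that both libraries filled with at least 50 cells, clusters 1, 2, 3, 6 and 7, the mitochondrial ratio was 0.712, 0.702, 0.856, 0.658 and 0.668, and the nuclear ratio was 1.03, 1.06, 1.03, 1.13 and 1.08. The lower mitochondrial level was thus present in each of these strata, in size from 0.658 to 0.856.

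At equal depth the median mitochondrial count per cell was also lower at day 11 than in the steady-state macrophage library, with overlapping ranges. It was close to that of the mixed library. With every cell thinned to 3000 UMIs, the median number of nuclear member UMIs was 55.0, 58.0 and 57.0 in the 3 compartments, with middle 90% ranges of 39 to 78, 39 to 85 and 36 to 86. The median number of mitochondrial member UMIs was 91.0, 61.0 and 62.0, with ranges of 49 to 209, 30 to 153 and 28 to 156. Counts of 0, 76 and 148 compartment cells were under 3000 UMIs and left out. The variance over the mean, which is 1 for pure counting, was 2.55, 3.48 and 3.98 for nuclear members and 23.0, 22.9 and 23.0 for mitochondrial members. Cells thus differed far more in their mitochondrial than in their nuclear members. Across cells of a library the 2 sums were nearly unrelated, with a Spearman rho of 0.0243 over 1683 cells, 0.125 over 4270 and -0.138 over 857. These cells share a library, and both sums are parts of 1 fixed total.

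**Figure D3:**
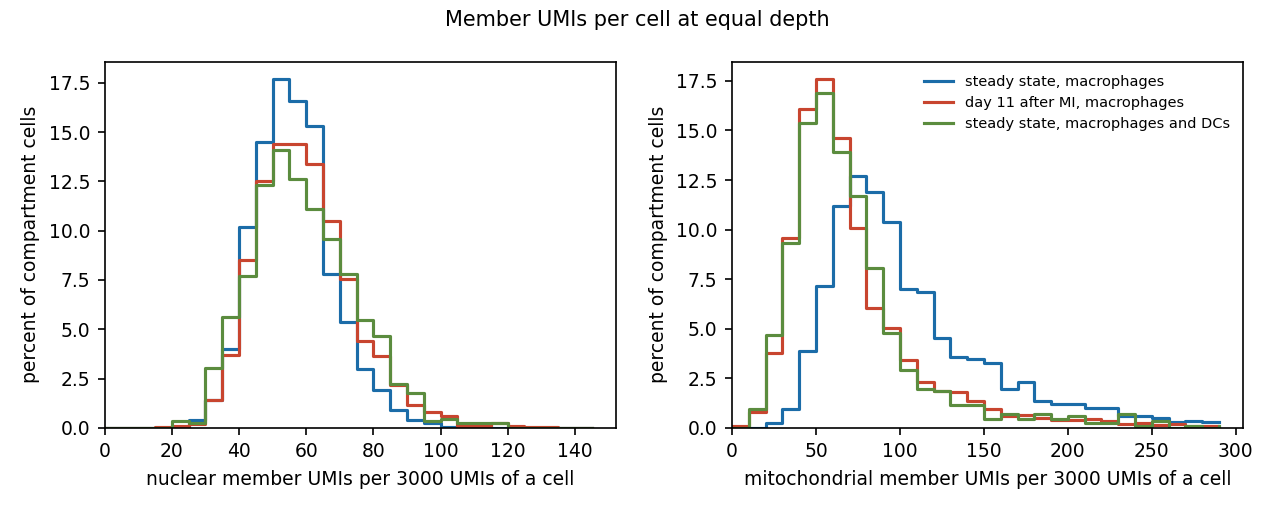
Lines give the percent of macrophage compartment cells by the number of nuclear (left) and mitochondrially coded (right) member UMIs after thinning each cell to 3000 UMIs. Nuclear curves overlap (medians 55.0, 58.0 and 57.0), while the mitochondrial curve of the steady-state macrophage library lies to the right (median 91.0, against 61.0 and 62.0).

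Among single nuclear members, 37 were higher and 7 lower at day 11 than in both steady-state libraries. Without cluster 9 these counts were 48 and 7, and without cluster 4 they were 36 and 8. The share of all genes higher or lower than in both libraries was not counted. Against the mixed library alone, 47 of 78 nuclear members were above 1, where 69.9% of all genes were. The members were thus not more often higher than other genes against that library. Ndufc2, a membrane-arm accessory subunit of complex I, stood first: it had 281.7 CPM at day 11, 214.8 in steady-state macrophages and 197.3 in the mixed library, ratios of 1.31 (1.27 to 1.36) and 1.43 (1.35 to 1.51), the latter 1.34 (1.24 to 1.44) without cluster 9. Ndufb2 of the same arm had ratios of 1.29 and 1.13, Ndufb5 1.13 and 1.16, and the assembly factor Ndufaf3 1.14 and 1.21. Of complex II, Sdhd had 1.11 and 1.16 and Sdhb 1.1 and 1.2. Lower against both were Ndufa3 (0.906 and 0.725), the ATP synthase alpha subunit Atp5a1 (0.919 and 0.926), Atp5b (0.940 and 0.940), Atp5k (0.946 and 0.768), the assembly factor Ndufaf7 (0.883 and 0.931) and Ndufa4 (0.836 and 0.941). Ndufa4, first described in complex I and now assigned to complex IV, had 330.2 at day 11, 394.9 in steady-state macrophages and 350.8 in the mixed library. Against the mixed library without cluster 9, the ratio of Atp5b was 0.995 (0.946 to 1.05) and that of Ndufaf3 was 1.07 (0.874 to 1.33). Without cluster 4 that of Ndufaf7 was 1.01 (0.832 to 1.22), and without both clusters that of Atp5a1 was 0.961 (0.905 to 1.02). None of these was set apart from 1 there.

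Against the mixed library alone, 1 of 78 nuclear members was at least 1.5-fold higher at day 11, where 18.2% of all genes were. This was Ndufs1, with 30 and 17.1 CPM and a ratio of 1.75 (1.44 to 2.15), and 1.72 (1.34 to 2.23) without cluster 9. It reached the minimum of 20 CPM through day 11 alone, where it was higher, and was under it in the mixed library. Complex II was lower in that library than in the other 2: its 4 genes summed to 439.5 CPM there, 512.0 in steady-state macrophages and 537.2 at day 11. Without cluster 9 it had 442.5 there, and day 11 over that library was 1.21 (1.15 to 1.28). Sdhc, a membrane anchor of complex II, had 67.0 there, 95.1 and 88.1. Complexes IV and V had 5612 and 6113 in the whole compartment of that library, 5416 and 5750 at day 11 and 5005 and 5408 in steady-state macrophages. Their order depended on cluster 9: without it they had 5261 and 5608, below the 5412 and 5739 of day 11, with ratios of day 11 to that library of 1.03 (1.01 to 1.04) and 1.02 (1.01 to 1.04). Ndufa6 had 339.0 there, 231.1 and 261.0, and Cox7b had 331.4, 238.3 and 259.3. Without cluster 9 they had 289.0 and 280.2 in that library.

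The gene mt-Atp8 separated all 3 libraries. It codes a small membrane subunit of the ATP synthase at chrM:7766-7969, a gene of 204 bases whose last 43 bases (chrM:7927-7969) are also the first 43 bases of mt-Atp6, and the 2 are known to be made as 1 transcript. The gene is shown with those shared bases in capitals, from the GENCODE vM21 transcripts of build GRCm38.
mt-Atp8: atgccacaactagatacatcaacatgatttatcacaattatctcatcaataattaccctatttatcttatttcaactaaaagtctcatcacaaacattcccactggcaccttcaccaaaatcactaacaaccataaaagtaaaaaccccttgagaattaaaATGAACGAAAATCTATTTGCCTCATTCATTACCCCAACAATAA

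It had 891.2 CPM in steady-state macrophages, 364.8 at day 11 and 100.5 in the mixed-library macrophages. Its partner mt-Atp6 had 7071, 4892 and 4656. As a percent of mt-Atp6, mt-Atp8 came to 12.6%, 7.46% and 2.16%. Across clusters the percent ran from 12.2% to 12.8% over 5 clusters of steady-state macrophages, from 7.15% to 7.96% over 12 clusters at day 11 including the cDC2-like one, and from 1.57% to 2.37% over 7 clusters of the mixed library, DC-like ones included. No cluster of any library reached the range of another library. Beside it, mt-Nd4l, which shares 7 bases with mt-Nd4, came to 11.7%, 8.63% and 9.18% of mt-Nd4. How reads in shared bases were assigned is not stated, and its part in these values was not tested.

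DC-like cells were compared with macrophages within the mixed library, where both were in the same library. DC-like cells had 21258 nuclear member CPM and macrophages 20591, a ratio of 1.03 (1.02 to 1.04). Mitochondrially coded members had 17217 and 22657, a ratio of 0.76 (0.754 to 0.766). Of 78 nuclear members, 1 was at least 1.5-fold lower in DC-like cells, where 23.4% of all genes were, and none was at least 1.5-fold higher, where 8.54% were. Of 12 mitochondrial members 7 were at least 1.5-fold lower, among them all of the complex I genes but mt-Nd1. The gene mt-Nd2 had 457.5 and 901.8, a ratio of 0.507, while mt-Co1 had 3542 and 4122, a ratio of 0.859. By complex the mitochondrial ratio was 0.640 for I, 0.663 for III, 0.824 for IV and 0.778 for V.

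Nuclear complex V had the highest ratio of DC-like cells to macrophages, at 6655 and 6113 (ratio 1.09). Of its 15 genes 11 were above 1, where 36.5% of all genes were. Its gamma and b subunits, Atp5c1 and Atp5f1, had 406.1 and 315.4 and 418.8 and 331.8, ratios of 1.29 (1.22 to 1.36) and 1.26 (1.19 to 1.33). Complex II was lower, at 395.4 and 439.5 (0.9), and the complex II assembly factor Sdhaf4 was the member past 1.5-fold, with 25.3 and 40.3 (0.628, 0.518 to 0.759). Ndufa6, a complex I subunit of the LYR family, had 484.7 and 339.0, the largest nuclear ratio at 1.43 (1.36 to 1.51). The Rieske iron-sulfur protein Uqcrfs1 had 174.9 and 137.6, a ratio of 1.27 (1.17 to 1.39). Cytochrome c itself, Cycs, which is no member but carries the electrons between complexes III and IV, had 368.2 and 195.9, a ratio of 1.88 (1.76 to 2.01).

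Without cluster 9 on the macrophage side, the DC-like ratio was 1.1 for nuclear and 0.67 for mitochondrial members. By complex the nuclear ratio was then 1.05 for I, 0.894 for II, 1.09 for III, 1.08 for IV and 1.19 for V, and the mitochondrial ratio 0.552, 0.559, 0.737 and 0.693 for I, III, IV and V. Of single members, Ndufa6 (1.68, 1.57 to 1.8) passed 1.5-fold, where 9.73% of all genes were higher, and Sdhaf4 (0.673, 0.538 to 0.842) did not, where 30.4% were lower. Of the mitochondrial members 8 of 12 were at least 1.5-fold lower, mt-Nd1 among them. Among cells of at least 10000 UMIs the nuclear ratio was 0.915 (0.905 to 0.924), which is below 1, and the mitochondrial ratio 0.901. The cardiomyocyte list summed to 262.8 CPM in DC-like cells and 105.7 in macrophages, with 52.0% of the DC-like UMIs in 10 cells, and in cells without any such UMI the ratios were 1.02 and 0.783. The 110 DC-like cells of the day 11 library, 109 of them in the cDC2-like cluster 10, had ratios of 0.985 and 0.762 against the macrophages there, and their macrophage list was at 22395 CPM against 67746.

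Cycling cells had more nuclear member UMIs in each library. A cell was called cycling when, at 3000 UMIs, it had a UMI of at least 3 of 25 cell cycle genes. Nuclear members summed to 20410 in 213 cycling cells and 18844 in the other cells of the steady-state library, a ratio of 1.08 (1.07 to 1.09). The values were 22818 and 20158 at day 11 (1.13, 1.12 to 1.14) and 23984 and 20448 in the mixed library (1.17, 1.16 to 1.19). Of the nuclear members 68 of 80, 69 of 78 and 70 of 79 were above 1, where 60.0%, 62.6% and 60.4% of all genes were. At least 1.5-fold higher were 1, 0 and 3, against 8.91%, 14.2% and 21.7% of all genes, so size set them apart less than direction did. The mitochondrial sum was not higher, with ratios of 0.985, 1.0 and 0.852. Without cluster 9 the mixed library had 1.3 (1.28 to 1.32) for the nuclear and 0.72 (0.707 to 0.732) for the mitochondrial sum, with 15 of 79 nuclear members at least 1.5-fold higher, where 24.6% of all genes were. Without cluster 4 day 11 had 1.15 (1.14 to 1.16) and 1.08 (1.07 to 1.09), so its mitochondrial sum was then higher in cycling cells. In the cycling DC-like cells of the mixed library the ratios to other DC-like cells were 1.11 and 1.02.

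In cycling cells complexes II and V had the highest sum ratios in each library: 1.11 and 1.11 at steady state, 1.18 and 1.18 at day 11, and 1.19 and 1.22 in the mixed library. Without cluster 9 complex V still had the highest in the mixed library, at 1.41, while complex II, at 1.22, was below I and IV, at 1.26 and 1.28. Of the 15 complex V genes 14, 15 and 15 were above 1, and all 4 of complex II were in each library. Atp5b had 598.7 in cycling and 426.2 in other cells at day 11, a ratio of 1.40 (1.34 to 1.47), with 1.14 and 1.27 in the other 2 libraries. Of the c-subunit genes, Atp5g2 had ratios of 1.29, 1.24 and 1.43 and Atp5g3 1.35, 1.29 and 1.39, while Atp5g1 had 1.05, 1.13 and 1.09. Cox5a had 1.15, 1.26 and 1.57. Ndufa6 had 0.95, 0.881 and 1.06. In the mixed library without cluster 9, Atp5g1 had 1.32 (1.13 to 1.53), Ndufa6 1.34 (1.17 to 1.54) and Cox5a 1.97 (1.74 to 2.23). Cox6b2 had 22 and 14 CPM in cycling and other cells at steady state (1.56, 1.19 to 2.03) and 48.2 and 12.2 in the mixed library (3.95, 2.6 to 5.92), while its 17.7 and 10.3 at day 11 were under the minimum. In both libraries where it was compared, it reached the minimum of 20 CPM through the cycling cells alone, where it was high. It was the 1 member counted as at least 1.5-fold higher at steady state, so that call is a description only.

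Marker status, read from a UMI of the gene in a cell thinned to 3000 UMIs, was used to split the compartment. Free RNA can give a UMI to a cell that does not express the gene, and a cell without a UMI may express it. Timd4, a receptor of resident macrophages, was seen in 431 cells at steady state, 142 at day 11 and 87 in the mixed library. These were 25.6% (23.5% to 27.8%), 3.33% (2.81% to 3.91%) and 10.2% (8.21% to 12.4%) of compartment cells, and 55.7%, 7.36% and 14% before thinning. In cells outside the compartment the share was as follows. In DC-like cells it was 5.61% (4.04% to 7.56%) of 713 in the mixed library and 1.83% (0.223% to 6.47%) of 109 at day 11, with median depths of 9956 and 10862 UMIs, and in the cDC1-like cluster 16 of the mixed library it was 11.0% (7.79% to 15%). In 28 B cells at steady state, with a median of 16431 UMIs, it was 14.3% (4.03% to 32.7%). The share in the cDC2-like cluster 10 of the mixed library was 1.22% (0.334% to 3.1%). In each library the interval of some cells outside the compartment thus held or overlapped the share inside it. In the mixed library the intervals of all DC-like cells and of cluster 10 lay below it. The split by Timd4 was thus not set apart from every group of cells outside, and whether those cells express Timd4 was not tested. The nuclear sum in these cells over cells without it was 1.02 (1.01 to 1.03), 1.0 (0.988 to 1.01) and 0.929 (0.91 to 0.948). The mitochondrial ratio was 0.978, 1.16 and 1.23. Within cluster 3, the resident-like cluster that holds most Timd4 cells, the mitochondrial ratio was 0.92, 1.08 and 0.888, so in the mixed library it lay on the other side of 1. Without cluster 9 the mixed library had 0.983 for the nuclear and 1.08 for the mitochondrial sum. None of 79 nuclear members, 1 of 78 and 2 of 76 were at least 1.5-fold different, where 2.25%, 11.9% and 34.7% of all genes were. At day 11 without cluster 4 the mitochondrial ratio was 1.26 (1.24 to 1.27).

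Cells with Ccr2, the receptor of recruited monocyte-derived cells, had a lower mitochondrial sum in each library. They were 26.9%, 35.5% and 47.6% of compartment cells (47.3%, 49.7% and 51.8% before thinning), and Ccr2 was in 14.3% (4.03% to 32.7%) of the 28 B cells at steady state, an interval that holds the share in the compartment. DC-like cells, which can express Ccr2, had 51.2% in the mixed library. The cells with Ccr2 had 32190 CPM against 36533 in cells without Ccr2 at steady state, 21713 against 24292 at day 11 and 18917 against 26404 in the mixed library. The ratios were 0.881 (0.877 to 0.886), 0.894 (0.89 to 0.898) and 0.716 (0.709 to 0.724). All 12 mitochondrial members were below 1 in all 3 libraries, where 39.2%, 47.7% and 43.7% of all genes were above 1. Within single clusters that held at least 50 cells of each kind the ratio was 0.876 and 0.839 at steady state, 0.807 to 0.95 over 7 clusters at day 11, and 0.867 and 0.954 in the mixed library, in each case below 1. Without cluster 9 the mixed library had 0.733, and without cluster 4 day 11 had 0.88 (0.875 to 0.884). At least 1.5-fold lower were 0, 0 and 6 of the 12, where 1.7%, 1.54% and 14.6% of all genes were. Without cluster 9 it was 1 of 12 in the mixed library, mt-Nd2 at 0.655, where 13.5% of all genes were.

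The nuclear sum of Ccr2 cells was 0.974 (0.967 to 0.98), 0.996 (0.991 to 1.0) and 1.1 (1.09 to 1.11) of the others, with 1.08 in the mixed library without cluster 9 and 0.988 (0.983 to 0.993) at day 11 without cluster 4. None of 79, 78 and 77 nuclear members was 1.5-fold different, where 2.62%, 2.81% and 19.9% of all genes were. Complex V was the one complex at or above 1 in all 3 libraries (1.0, 1.03 and 1.17). Its subunits Atp5c1 and Atp5f1 had ratios of 1.06 and 1.09, 1.13 and 1.1, and 1.28 and 1.13. The cardiomyocyte list was lower in Ccr2 cells, at 176.6 and 201.3, 76.9 and 84.6, and 68.8 and 136.0 CPM, and its part in the mitochondrial values was not tested.

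Gpnmb, a gene of lipid-laden macrophages, gave a comparison at day 11 only, with 817 cells against 3453 without it, since the other libraries held 29 and 3 such cells. The day 11 cells were 19.1% (18% to 20.3%) of the compartment and 30.3% before thinning, against 2.75% (0.571% to 7.83%) of 109 DC-like cells and 20% (4.33% to 48.1%) of 15 T or NK cells there. The nuclear sum was 20723 against 20296 CPM (1.02, 1.02 to 1.03) and the mitochondrial sum 23467 against 23322 (1.01, 1.0 to 1.01), the latter 0.99 (0.985 to 0.996) without cluster 4. None of 77 nuclear members was 1.5-fold different, where 7.47% of all genes were. The largest ratio was that of Ndufa1, an X-linked complex I subunit, with 233.4 against 199.3 (1.17, 1.11 to 1.23), and Atp5f1 was among the lowest with 312.2 against 345.5 (0.903, 0.866 to 0.943).

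**Figure D4:**
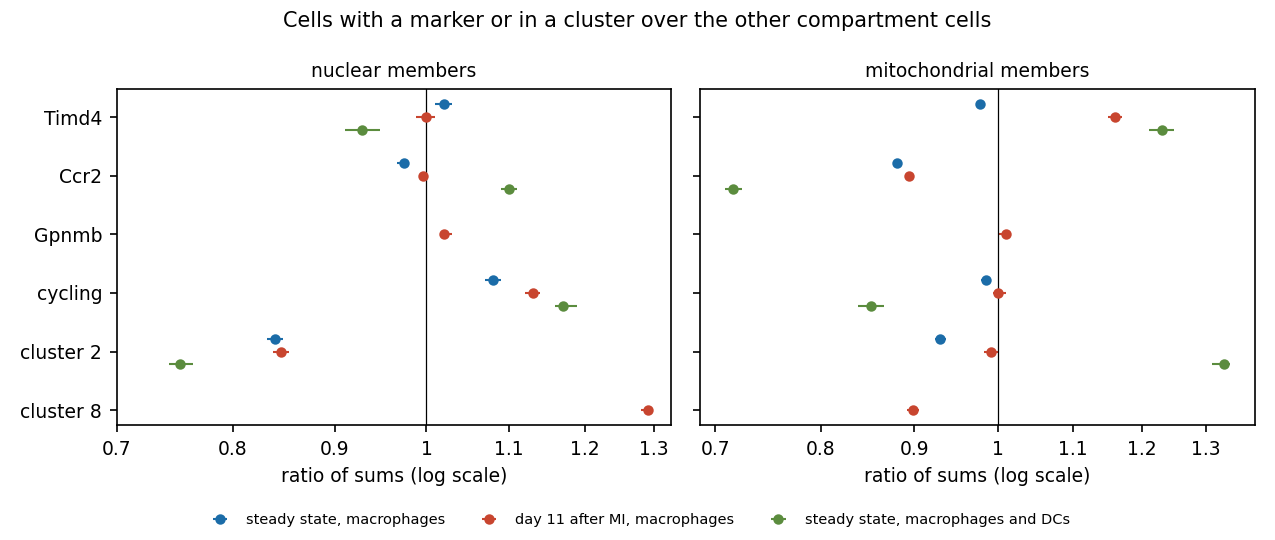
Points give the ratio of the summed members in cells with a marker UMI, in cycling cells, or in a cluster, over the other compartment cells of the same library, with exact 95% counting intervals, on a log axis. Ccr2 cells lie below 1 for mitochondrial members in all 3 libraries (0.881, 0.894 and 0.716), cycling cells lie above 1 for nuclear members, and cluster 2 lies below 1 for nuclear members.

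Clusters were made without the members, ribosomal protein genes or any mitochondrial gene. Clusters 2 and 8 were singled out after their values were seen, a choice that favours ratios far from 1. Their nuclear ratios lay farther from 1 than those by marker status. Mitochondrial ratios did not follow this: at steady state cluster 2 had 0.93 and Ccr2 cells had 0.881. Cluster 8, led by Cxcl3, Arg1, Spp1 and Thbs1, held 254 cells at day 11. Its nuclear members summed to 25636 CPM against 19944 in the rest of the compartment, a ratio of 1.29 (1.28 to 1.29). Of 77 nuclear members 76 were above 1, where 50.3% of all genes were, and 6 were at least 1.5-fold higher, where 8.24% of all genes were. Its mitochondrial sum was lower, at 21208 against 23597 (0.899). Without cluster 4 in the rest the ratios were 1.31 and 0.968. The ratio was 1.23 for complex I, 1.24 for II, 1.25 for III, 1.31 for IV and 1.35 for V. The 12 and 18 cells of cluster 8 in the other libraries had nuclear sums of 24157 and 24222.

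The members past 1.5-fold in cluster 8 were Cox5a, Cox5b and Cox7b of complex IV, Uqcrq of complex III, and Ndufs4 and Ndufb6 of complex I. As a share of the members they were no more common than the 8.24% of all genes. Cox5a, the subunit that binds thyroid hormone and sits on the matrix side, had 553.1 against 297.1 CPM, a ratio of 1.86 (1.77 to 1.96). Ndufs4 had 150.2 against 90.0 (1.67, 1.51 to 1.84), Uqcrq 433.9 against 268.6 (1.62) and Cox5b 577.6 against 363.0 (1.59). The beta subunit Atp5b had 609.6 against 426.6 (1.43, 1.36 to 1.5), while Sdha had 119.5 against 118.5 (1.01, 0.904 to 1.12). Of genes near the chain, Cycs had 272.3 against 142.2 (1.91) and the ADP/ATP carrier Slc25a5 674.6 against 407.1 (1.66). Among cells of 5000 to 10000 UMIs the nuclear ratio of cluster 8 was 1.33, and among deeper cells it was 1.23.

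Cluster 2, led by Mmp13, Lilra5 and Hspa1a, had the lowest nuclear sum of the macrophage clusters with at least 50 cells in each library, and held 324, 385 and 344 cells. The nuclear sum was 16355 against 19475 CPM at steady state, 17418 against 20579 at day 11 and 16390 against 21753 in the mixed library, ratios of 0.84, 0.846 and 0.753, the last 0.773 without cluster 9. Of the nuclear members 1 of 79, 7 of 78 and 7 of 77 were above 1, where 36.3%, 51.5% and 47.9% of all genes were. At least 1.5-fold lower were 1, 1 and 11, against 8.47%, 5.1% and 12.1% of all genes. At day 11 without cluster 4 in the rest, 5 of 78 were above 1 and 0 were at least 1.5-fold lower. The share of all genes was not counted for that setting. Cox5a had 195.0 against 297.2, 233.0 against 322.2 and 182.4 against 382.0, ratios of 0.656, 0.723 and 0.478. Atp5b was close to the rest in 2 libraries, with 0.999 and 1.03, and had 0.798 in the mixed library. The cells of cluster 2 were shallower than the rest, with medians of 7340, 6184 and 3794 UMIs. Their cardiomyocyte list was higher, at 295.0 against 179.6, 302.5 against 66.5 and 235.9 against 69.6. Among cells of 5000 to 10000 UMIs the nuclear ratio was 0.865, 0.876 and 0.842, and the part of muscle RNA in it was not tested.

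**Figure D5:**
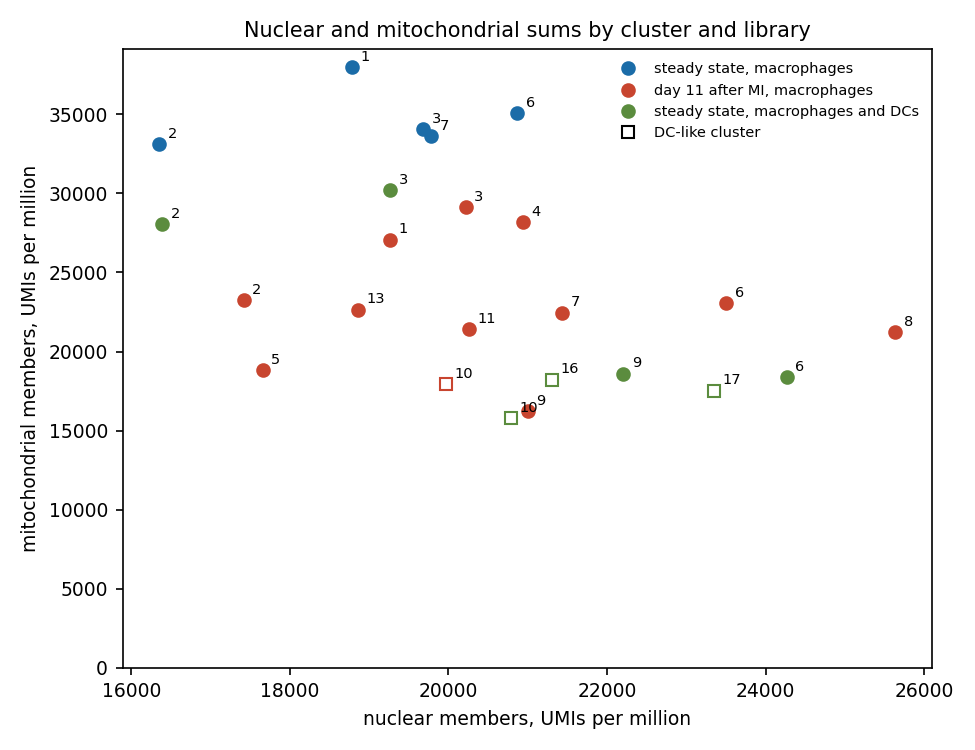
Points give the mitochondrial against the nuclear member sum, in CPM, for each cluster of at least 50 cells in a library; numbers are clusters, open squares are DC-like, and the horizontal axis does not start at 0. Cluster 2 lies at the left and clusters 6 (cycling) and 8 at the right, and blue points of the steady-state macrophage library lie above the same clusters of the other libraries.

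Of nuclear members with at least 50 CPM in every cluster compared, Cox5a had the widest range over clusters at day 11 and in the mixed library, and Ndufb11 (ratio of highest to lowest 1.72) at steady state, with Cox5a next (1.7). At day 11 it ran from 233.0 CPM in cluster 2 to 553.1 in cluster 8, in the mixed library from 182.4 in cluster 2 to 507.3 in the cycling cluster 6, and at steady state from 195.0 in cluster 2 to 332.1 in cluster 6. Ndufa4 had another order, from 234.7 in cluster 5 to 435.7 in the resident-like cluster 3 at day 11. Ndufc2 varied little at steady state, from 202.2 to 234.9.

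Genes that work beside the chain were read from fixed lists. At day 11 over steady state, 11 genes of cytochrome c and carriers had a sum ratio of 1.07 with 5 above 1, 14 Krebs cycle genes had 0.991 with 7 above 1, 10 complex IV assembly genes 0.972 with 5 above 1, and 68 mitochondrial ribosomal protein genes 1.03 with 43 above 1. Of 4 measured genes of mitochondrial transcription and biogenesis, 1 was above 1, with a sum of 273.4 against 276.4 CPM. In cluster 8 the mitochondrial ribosomal proteins had 63 of 70 above 1 and the Krebs cycle 12 of 14, with sum ratios of 1.24 and 1.25. In cycling cells at day 11 the same lists had 60 of 71 and 10 of 14 above 1, with 1.17 and 1.2. Of all genes, 40.4%, 50.3% and 62.6% were above 1 in these comparisons, in that order.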

How the data were processed

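The deposited values are UMI counts per gene and cell barcode, which the authors made with Cell Ranger and STAR on build mm10, per the submitters' processing notes. Their versions, and the rule for calling barcodes, were not given in the sources used here. Reporter entries were left out. Barcodes with at least 500 genes and at most 10% mitochondrial UMIs were kept. Doublets were removed by Scrublet score, in number 0.8% per 1000 barcodes (26, 176 and 25), because the automatic threshold marked 8, 0 and 2. Cells were clustered together with scanpy 1.11.5 (2000 variable genes without members, ribosomal protein, mitochondrial or sex-linked genes, 30 components, 15 neighbours, Leiden resolution 1.0), which gave 18 clusters. B, T or NK, and endothelial clusters were set aside. UMIs were summed over cells and divided by the group's total, per 1000000 UMIs (CPM).

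Ratios have exact conditional 95% intervals of counting error only, and PCR or cell-to-cell variation is not in them. No p-value is given, since each group has 1 library, so a difference is called by size at 1.5-fold. A gene entered a comparison at 20 CPM in either group, and a count of 0 was set to 3 counts for the 1.5-fold call, the median and the count above 1, while no ratio with a count of 0 is printed. Depth per library is in the report. On simulated counts of 5141 genes for day 11 over steady state, calls were made for 50 of 50 genes raised and 50 of 50 lowered 2-fold, 0 of 100 genes changed 1.2-fold, which is under the size called, and 0 of 4941 unchanged genes. With counting error alone at the depth of these groups, such calls follow from the 1.5-fold limit. Spread between cells or animals and smaller groups were not simulated. Members, lists and clusters were chosen with earlier results of these data known. Named genes are the 3 most abundant of each complex, the 6 highest and 6 lowest ratios of a comparison, isoform pairs, all mitochondrially coded genes and members of the fixed lists. A gene named in one comparison may be followed into others, and Ndufb4 and Atp5h are named besides for their promoters. Alternatives changed the mitochondrial limit, doublet removal, the denominator, the mean over cells, the reference, the marker gate and the level minimum. Gene positions came from GENCODE vM21 and promoters from RefSeq.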

Additional observations from a re-analysis of the deposited data

Results flagged for a closer look

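Some contrasts within a library pointed opposite ways in different libraries, with counting intervals that left out 1. The difference between libraries was not tested, since each has no replicate. For Timd4 cells over cells without Timd4, the nuclear member sum had a ratio of 1.02 at steady state and 0.929 in the mixed library, where it was 0.983 (0.962 to 1.0) without cluster 9. The mitochondrial member sum of the same contrast had 0.978 at steady state, 1.16 at day 11 and 1.23 in the mixed library, the last 1.08 without cluster 9. For Ccr2 cells the nuclear sum had 0.974 at steady state and 1.1 in the mixed library, where 257 of 408 Ccr2 cells were in cluster 9 and the ratio within that cluster was 0.991. For cluster 2 over the rest, the mitochondrial sum had 0.93 at steady state and 1.33 in the mixed library, the latter 1.16 without cluster 9.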

How the results depend on the processing

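No paired analysis was possible because each group has 1 library and no number in the labels ties libraries together. Alternatives marked here as added (cells without a cardiomyocyte UMI, cells of 5000 to 10000 UMIs, leaving out cluster 9 or cluster 4, DC-like comparison in cells of at least 10000 UMIs) were chosen after seeing the data. The day 11 over steady state ratio of nuclear members (1.07) turned to 0.989 with the mixed library as reference and was 1.05 there without cluster 9 and 0.98 without cluster 4. It was 1.06 without cluster 4, 1.06 as a mean over cells and 1.09 in cells without a cardiomyocyte UMI. The mitochondrial ratio (0.664) turned to 1.03 with that reference and was 0.917 there without cluster 9 and 0.964 without cluster 4. It was 0.62 without cluster 4, 0.65 with no mitochondrial limit, 0.714 with a limit of 5%, 0.662 per nuclear UMIs other than those of ribosomal protein genes, 0.688 as a mean over cells, 0.661 without cycling cells, 0.75 without a cardiomyocyte UMI and 0.699 at 5000 to 10000 UMIs. The count of 0 nuclear members at least 1.5-fold different became 1 with the other reference. It stayed 0 under the remaining settings run against the steady-state macrophage library. Against the mixed library without cluster 9, and without clusters 4 and 9, 1 of 79 was higher and 1 lower. The lower one was Cox6b2 (0.518, 0.406 to 0.668, and 0.541, 0.421 to 0.701). It reached the minimum through the mixed library alone, with 20.8 CPM there. The share of all genes was not counted for these settings.

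The DC-like nuclear ratio (1.03) was 1.16 over the nuclear denominator, 1.09 as a mean over cells, 1.02 without a cardiomyocyte UMI and 1.1 without cluster 9. The mitochondrial one (0.76) was 0.743, 0.815, 0.851, 0.769, 0.783 and 0.67 with no mitochondrial limit, the 5% limit, the nuclear denominator, the mean over cells, no cardiomyocyte UMI and no cluster 9. Nuclear ratios by marker moved as follows. Timd4 at steady state (1.02) was 1.06 with the gate on all UMIs, 1.03 without cycling cells, 1.01 over the nuclear denominator and 1.04 over cells. Ccr2 at day 11 (0.996) was 1.01 with the gate on all UMIs, 1.01 over the nuclear denominator and 0.986 over cells. Gpnmb (1.02) was 1.04 with the gate on all UMIs, 1.03 at 2 or more UMIs, 1.03 without cycling cells, 1.01 over the nuclear denominator and 1.03 over cells. Cycling at steady state (1.08) was 1.07 with the gate on all UMIs and 1.11 at 5 or more genes. Among cells of at least 10000 UMIs the DC-like nuclear ratio turned to 0.915, and the mitochondrial one was 0.901. Of the ratios in this paragraph, the DC-like nuclear one and Ccr2 at day 11 were on both sides of 1. Moves of 0.01 in the marker and cycling ratios are about as wide as the counting intervals, and the spread between animals was not measured. The cause of these moves was not tested.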

Other observations

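Barcodes above the 10% mitochondrial limit numbered 37, 23 and 13 in the 3 libraries, and the highest had 90.2%, 95% and 21.6% of UMIs from mitochondrial genes. The 5th and 95th percentiles of this percent over all barcodes were 1.7% and 7.7% at steady state, 1.02% and 5.39% at day 11, and 0.947% and 5.68% in the mixed library. Small groups outside the compartment gave these mitochondrial member sums: 28 B cells of the steady-state library had 37934 CPM and 12 B cells at day 11 had 32926, and 11 endothelial cells of each had 33185 and 18268.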
